A study of Drosophila melanogaster with 4 samples.

Results

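Dense runs of ORC2 binding were described in larval salivary glands of Drosophila melanogaster. A dense run was defined as a chain of at least 8 regions of the combined list in which each neighbour lay under 10 kb from the next, measured between the facing ends. The rule was applied to chromosome arms 2L, 2R, 3L, 3R, 4 and X. It selected 1227 regions in 121 runs, out of 6503 regions on these arms and 6587 in all. Because the runs were chosen by the positions of the regions, the number of regions per run and the short distances between them follow from the rule and are given as a description. No test was made on the regions of the runs, whose positions, widths and scores come from the same libraries as the rule.

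ORC2 is a subunit of the origin recognition complex, which binds DNA and loads the replicative helicase at sites where replication may start. In Drosophila the complex has no strict consensus sequence, and its binding is known to favour open chromatin. Salivary gland cells pass through repeated rounds of replication without division, which gives polytene chromosomes, and some chromosome regions are copied less than the rest in these cells. That incomplete copying depends on the gene SuUR, short for Suppressor of Underreplication.

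The libraries came from salivary glands dissected from wandering third-instar larvae. Both are labelled SuUR mutant, from a strain kept in the Orr-Weaver laboratory that the labels describe as outcrossed and carrying a transposon tagged with GFP. Chromatin was immunoprecipitated with a crude polyclonal serum, raised in rabbit to the whole ORC2 protein, and replicates 1 and 2 are named as the first and second extraction. Wild-type (Oregon-R) entries, labelled ChIP DNA and input DNA, are not analysed here, so the runs were not set against the wild type. They carry the names of the same extractions, which leaves some doubt about the genotype given here as labelled. The labels do not say how many animals went into an extraction, or that the extractions came from separate animals, and peak lists hold no expression with which the tissue could be checked. The replicate lists held 8247 and 10621 peaks with a score from the peak caller that has no unit. Read depth is unknown, and with 2 libraries no standard deviation is printed.

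Dense runs took up a small part of the arms and a larger part of the bound regions. The 121 runs spanned 4.31 Mb, or 3.59% of the 120 Mb covered by the main arms, and held 18.9% of the main-arm regions. Regions lay at 284 per Mb inside the runs and at 45.5 per Mb elsewhere, a contrast that the rule itself creates. Members covered 16.6% of the length of the runs (0.717 Mb), so most of the DNA within a run lay between called regions. By run, this share ranged from 6.25% to 45.2%, with a median of 17.2%. The number of runs depends on the definition: 27 were found where the peaks of the libraries had to overlap by 50% of each, and the peak lists of replicates 1 and 2 alone gave 223 and 370.

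Most runs were only a little larger than the minimum. The median number of regions in a run was 9, and the median span was 33.7 kb with an interquartile range of 26.3 to 43.0 kb. The shortest run was 13.2 kb long and the longest 85.5 kb. Runs of 8 to 11 regions numbered 93, runs of 12 or more numbered 28, and 6 runs held 15 or more. Just inside the limit stood 42 runs of 8 regions with a median span of 26.7 kb, and just outside it 66 runs of 7 regions with a median span of 25.4 kb. The median scores of these neighbouring sizes were 1.71 and 1.72 in replicate 1 and 2.25 and 2.26 in replicate 2. In size and score the limit of 8 therefore cut through a continuous range.

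Dense runs were found on every large arm and were absent from the small chromosome 4. There were 28 on 3R, 27 on 3L, 24 on 2L, 24 on X and 18 on 2R. Per Mb this was 1.00 on 3R (95% exact Poisson interval 0.667 to 1.45), 1.10 on 3L (0.725 to 1.60), 1.05 on 2L (0.670 to 1.56), 1.07 on X (0.686 to 1.59) and 0.851 on 2R (0.504 to 1.35). All 5 intervals overlapped, and no order of the large arms was read from them. On chromosome 4 the count of 0 over 1.30 Mb allows up to 2.84 runs per Mb by the same exact interval. The limit of 3 runs set for a count of 0 gives 2.31 per Mb. Both values are above the level of every large arm. The largest chain on chromosome 4 held 4 regions. These intervals cover counting error only.

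The share of an arm's regions that lay in dense runs was 20.6% on 3R, 20.5% on X, 19.6% on 3L, 18.7% on 2L and 15.3% on 2R. The level for all main arms together was 18.9%, and 2R lay furthest from it. Regions of a run are not independent of each other, so no interval is given for these shares.

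**Figure D1:**
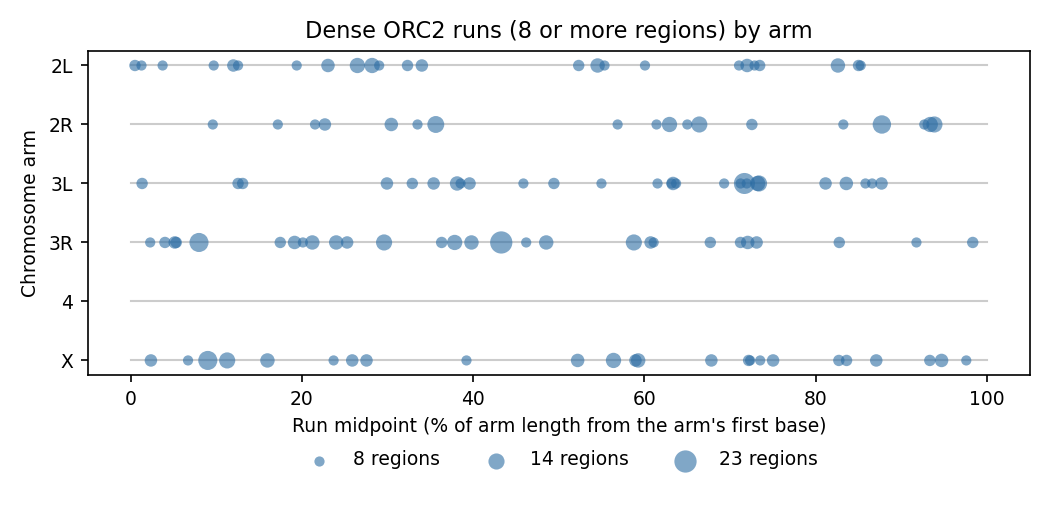
Position of each dense run as the percentage of the arm's length from its first base (horizontal axis) on each chromosome arm (vertical axis), with symbol area growing with the number of regions. The 121 runs are spread over the 5 large arms, chromosome 4 has 0, and the run with 23 regions lies on 3R.

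Along the arms the distance from one dense run to the next varied widely. The distance between neighbouring dense runs had a median of 537 kb, with a lowest value of 10.1 kb and a highest of 4458 kb. Of 116 such pairs, 13 were under 100 kb apart and 34 were over 1 Mb apart. When each arm was divided into bins of 1 Mb, 50 of 123 bins held no run midpoint, 43 held 1, 17 held 2 and 13 held 3 or more. Whether these distances and counts differ from those of randomly placed runs was not tested, so no clustering is read from them.

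The 2 Mb next to the centromere, which end 2L, 3L and X and begin 2R and 3R in these coordinates, held 7 run midpoints in all, against 10.1 that their share of the main-arm length would give. They lay 4 on 3R and 3 on X, and 2L, 2R and 3L had 0 there. The first run of 2R, from 2019086 to 2039044, lay just beyond the limit. Arm ends were set by the last peak in any list, and stretches where no reads can be placed were not assessed.

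The bin with the most run midpoints was 3L from 17 to 18 Mb, with 5. Positions here and below refer to FlyBase release 5.1, and no gene is named for them because an annotation of that release was not used. Within 565 kb of 3L, from 17458876 to 18023811, 5 dense runs followed each other and held 64 of the 78 regions of that stretch. Over all main arms 18.9% of regions lay in dense runs. The stretch was chosen for its number of runs and cut at their outer ends, so its high share follows from that choice. The last of the 5 runs has its midpoint beyond the bin from 17 to 18 Mb, which instead includes an earlier run at 3L 16995230 to 17009675. The first was 3L 17458876 to 17489907 with 8 regions, and after 60.5 kb came 3L 17550389 to 17617339 with 21 regions. A further 20.5 kb on lay 3L 17637852 to 17662893 with 8 regions. After an interval of 290 kb followed 3L 17952836 to 17971071 with 13 regions, and 10.1 kb later 3L 17981140 to 18023811 with 14 regions. The last 2 were separated by a gap of 10068 bp, just over the joining limit, so they count as 2 runs by a narrow margin. In replicate 1 the median scores of these 5 runs in order along the arm were 2.02, 2.20, 2.11, 1.81 and 1.92. In replicate 2 they were 2.66, 2.54, 2.65, 1.99 and 2.79. The most tightly packed of the 5, with 13 regions, had the lowest median of the 5 in both libraries.

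The surroundings of dense runs were described by the gaps on either side. Gaps next to a run, each counted 1 time, had a median of 20.6 kb, against 23.9 kb for all 2399 gaps of at least 10 kb between neighbouring regions. Of the 236 flanking gaps, 113 (47.9%) were under 20 kb, against 41.4% of all such gaps. Gaps of at least 100 kb made up 24 of them (10.2%), against 9.34% of all separating gaps, and these belonged to 23 runs. A single run had such a gap on both sides. The nearest chain beyond a flank was another dense run for 6 pairs of runs and a lone region at 92 of the 242 run sides (38.0%). Lone regions made up 41.9% of all chains. Of the flanking gaps, 18 were under 11 kb, just outside the joining limit, and 46 gaps inside the runs were 9 kb or longer, just within it.

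Neighbours inside a run were often far closer than the limit required. The 1106 gaps inside dense runs had a median of 2523 bp, with an interquartile range of 776 to 5119 bp. Gaps under 1 kb numbered 320 (28.9%), and 23 of them were under 200 bp. By contrast 287 gaps (25.9%) were 5 kb or longer. Chains of 4 to 7 regions had a median gap of 2776 bp and 27.3% of gaps under 1 kb. The spacing inside dense runs was therefore close to that of the smaller chains.

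**Figure D2:**
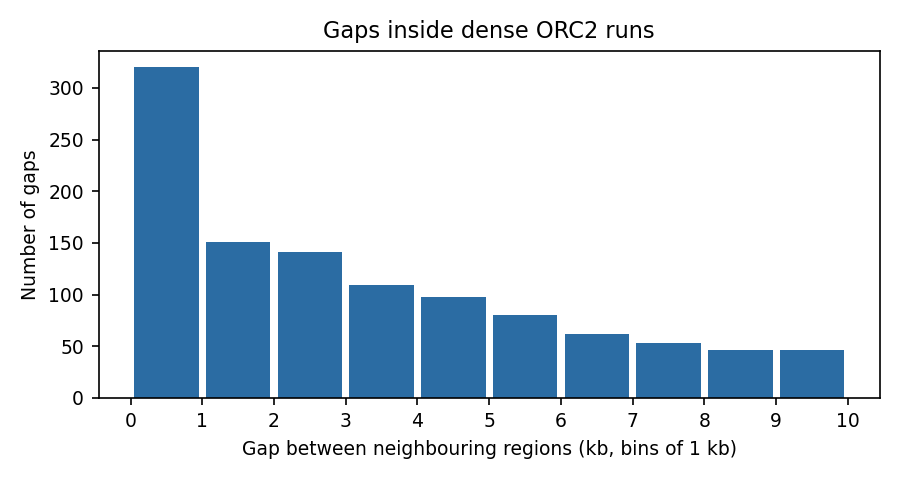
Number of gaps between neighbouring regions inside dense runs (vertical axis) by gap length in bins of 1 kb (horizontal axis). The first bin holds 320 of the 1106 gaps, the second 151, and the last 46.

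Spacing also varied from run to run, with median gaps of 330 to 7468 bp. The smallest mean gap was found at 3L 17952836 to 17971071, where 13 regions over 18.2 kb were separated by 832 bp on average. In that run 11 of 12 gaps were under 1 kb, and regions covered 45.2% of its length. Next came 3L 15087401 to 15101482 with 8 regions and a mean gap of 1399 bp, and 2L 2872805 to 2889525 with 8 regions and a mean gap of 1414 bp. These 2 short runs were covered to 30.5% and 40.8%, and the run on 2L stood 10011 and 10993 bp from its neighbours on either side.

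The run with the most regions was also the longest. It lay on 3R from 12030945 to 12116417 and held 23 regions, ORC4470 to ORC4492, over 85.5 kb. Its gaps ranged from 212 to 8454 bp with a median of 2294 bp, and regions covered 20.7% of it. Replicate 1 had 31 peaks within it and replicate 2 had 29, of which 8 and 6 had no partner in the other library. Over all dense runs, 9.93% of the replicate 1 peaks and 23.6% of the replicate 2 peaks had no partner. Flanking gaps of 17.7 and 14.4 kb separated it from its neighbours.

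Within this run the scores ranged from 1.38 to 3.28 in replicate 1, with a median of 1.95, and from 1.77 to 4.91 in replicate 2, with a median of 2.41. Replicate 2 was higher at 22 of the 23 regions. The highest score in both libraries was at ORC4487 (3R 12086072 to 12086911, 840 bp), with 3.28 in replicate 1 and 4.91 in replicate 2. The second highest in both was the first region of the run, ORC4470 (3R 12030945 to 12031451, 507 bp), with 2.95 and 4.45. These 2 regions stood above the rest in both libraries, while the order of the others differed.

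Between these high points lay regions of moderate score. In the first part of the run, 3 regions formed the closest group, with gaps of 212 and 238 bp between them. They were ORC4478 (1097 bp) with 2.39 in replicate 1 and 3.28 in replicate 2, ORC4479 (502 bp) with 2.68 and 2.65, and ORC4480 (965 bp) with 1.75 and 2.22. ORC4479 was the single region of the run that scored lower in replicate 2.

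Before this group the regions were more widely spaced. ORC4471 (1659 bp) scored 2.14 in replicate 1 and 2.71 in replicate 2, and ORC4472 (457 bp) scored 1.64 and 1.98. ORC4473 (739 bp) followed the longest gap of the run, 8454 bp, and scored 2.01 in both libraries. After it came the narrowest region, ORC4474 (124 bp), with 1.72 and 2.08, and then ORC4475 (487 bp) with 1.62 and 2.22. Next to the close group the scores were higher in replicate 2, with 3.09 at ORC4476 (469 bp) and 2.69 at ORC4477 (692 bp), against 1.95 and 1.78 in replicate 1.

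The second part of the run alternated between wide and narrow regions. ORC4481 (1185 bp) scored 1.91 in replicate 1 and 2.76 in replicate 2, ORC4482 (683 bp) 2.17 and 2.39, and ORC4483 (1544 bp) 2.23 and 2.80. The widest region, ORC4485 (1840 bp), scored 2.30 and 2.92, and it stood between ORC4484 (287 bp) with 1.58 and 1.94 and ORC4486 (303 bp) with 1.68 and 1.77. These narrow neighbours were lower than the wide region in both libraries.

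At the far end lay the regions that were lowest in replicate 1. ORC4488 (774 bp) scored 1.38 in replicate 1 and 2.29 in replicate 2, and ORC4489 (710 bp) scored 1.41 and 2.41. The last regions were ORC4490 (1136 bp) with 1.99 and 2.25, ORC4491 (426 bp) with 2.16 and 2.75, and ORC4492 (267 bp) with 1.81 and 2.25. Of the 23 regions, 15 in replicate 1 and 13 in replicate 2 were at or above the median of all main-arm regions.

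**Figure D3:**
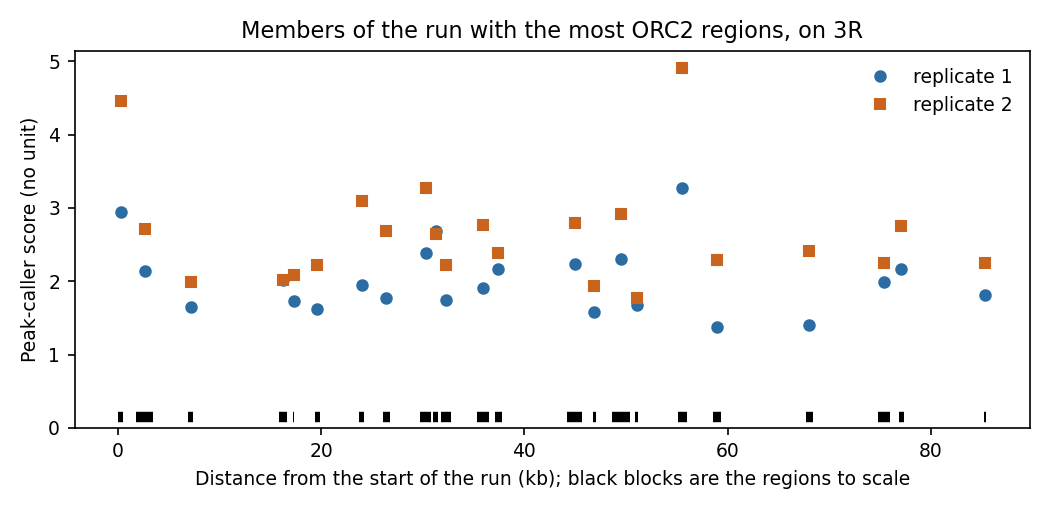
Score of each of the 23 regions of the run on 3R in replicate 1 (circles) and replicate 2 (squares) on the vertical axis, against the distance from the start of the run in kb on the horizontal axis, with the regions drawn to scale as black blocks. The first region and ORC4487 stand above the others in both libraries, at 2.95 and 3.28 in replicate 1 and at 4.45 and 4.91 in replicate 2.

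The next largest runs lay on 3L, 3R, X and 2R. The run at 3L 17550389 to 17617339 held 21 regions, 20 of them under 1000 bp wide, with median scores of 2.20 in replicate 1 and 2.54 in replicate 2. Replicate 2 was higher at 15 of its 21 regions, fewer than in the largest run. One of its members, ORC3463 (3L 17589946 to 17590391, 446 bp), scored 5.11 in replicate 1 and 7.76 in replicate 2.

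The run at 3R 2193597 to 2261369 held 18 regions and had low scores, with medians of 1.48 in replicate 1 and 1.88 in replicate 2. It was also the run, among the 10 with the most regions, with the most peaks called in a single library. These were 2 of its 22 peaks in replicate 1 and 13 of its 31 peaks in replicate 2. An equal number of regions lay at X 1988028 to 2053198, with higher medians of 1.97 and 2.45, and there replicate 2 was higher at 18 of 18. The libraries thus ranked these 2 runs of equal size in the same order.

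On 2R, the run from 18523297 to 18576697 held 17 regions with medians of 1.83 and 2.19. The run at 2R 7517090 to 7554501 packed 15 regions into 37.4 kb, with a median gap of 1183 bp, medians of 1.64 and 2.05 and no region of 1000 bp or more. The remaining 4 of the 10 largest held 14 regions each and were the longest runs of that size. Runs of 14 regions at 3L 17981140 to 18023811 (42.7 kb) and 3R 16366271 to 16419070 (52.8 kb) were shorter and fell outside the 10. The 4 named runs lay at 2R 19812643 to 19882868 (70.2 kb), X 2498080 to 2557989 (59.9 kb), 2R 14012976 to 14071739 (58.8 kb) and 3R 8227394 to 8286020 (58.6 kb). In replicate 1 their medians were 1.75, 1.51, 1.56 and 1.53, and in replicate 2 they were 1.97, 2.49, 1.98 and 1.97. The run on X was thus low among these 4 in replicate 1 and high in replicate 2. By span the second longest of all runs was 2R 19812643 to 19882868, and the third was 3R 2193597 to 2261369 with 67.8 kb.

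The median score of a run ranged from 1.37 to 2.46 in replicate 1, with a median of 1.70, and from 1.76 to 3.64 in replicate 2, with a median of 2.21. The median was higher in replicate 2 in all 121 runs. Ranks of the runs were alike in the libraries, with Spearman's rho of 0.70 over the 121 run medians. The libraries were called on the same runs, which share their chromosomal position, and no p is given.

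By combined score the runs with the highest medians, a pair chosen after their values were seen, lay at X 12621725 to 12659650 and 3L 8049398 to 8089757. The first held 13 regions with medians of 2.34 in replicate 1 and 3.42 in replicate 2, and the second 9 regions with 2.40 and 3.64. Both were above the median run in each library. In replicate 1 alone the highest median, 2.46, was that of the 8 regions at 3L 21228765 to 21255549, which had 2.73 in replicate 2.

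**Figure D4:**
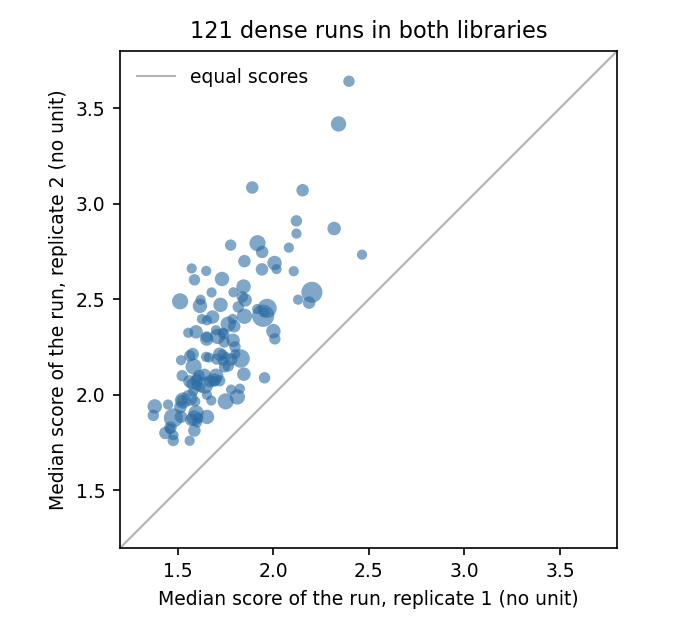
Median score of each dense run in replicate 2 (vertical axis) against replicate 1 (horizontal axis), with symbol area growing with the number of regions and a line where both would be equal. All 121 runs lie above the line, and the runs with the most regions do not lie at the top.

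Members of dense runs had slightly lower median scores than other main-arm regions. In replicate 1 the median was 1.72 (interquartile range 1.51 to 2.02), against 1.78 (1.53 to 2.11) for the 5276 other regions, a difference of -0.0518. In replicate 2 it was 2.27 (1.88 to 2.73) against 2.35 (1.94 to 2.92), a difference of -0.0841. The sign was the same in both libraries, and no test of the difference was made. It was not seen on every arm. On 3L the medians were 1.79 for members and 1.77 for the others in replicate 1, and both were 2.33 to 2 decimals in replicate 2. On X they were 1.80 and 1.83 in replicate 1, and 2.54 and 2.53 in replicate 2. The clearest contrast was on 2L, with 1.70 and 1.79 in replicate 1 and 2.15 and 2.36 in replicate 2.

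The contrast was largest against regions with few neighbours. Regions with no neighbour within 10 kb, 1008 in number, had medians of 1.92 in replicate 1 and 2.52 in replicate 2. Chains of 2 to 3 regions had 1.78 and 2.38, and chains of 4 to 7 had 1.72 and 2.27. Beyond that size the medians changed little and in no steady direction: runs of 8 to 11 had 1.72 and 2.25, and runs of 12 or more had 1.75 and 2.31. All dense runs together had 1.72 and 2.27, the same to 2 decimals as the chains of 4 to 7 regions in both libraries.

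Region width went the other way. Runs were joined by the gap between facing ends, which is shorter beside a wide region, so width is part of what the rule selects. The median width was 374 bp for lone regions, 431 bp in chains of 2 to 3, 452 bp in chains of 4 to 7, 455 bp in runs of 8 to 11 and 482 bp in runs of 12 or more. Members of dense runs as a whole had a median of 464 bp (interquartile range 300 to 750 bp), against 431 bp (272 to 675 bp) for the other main-arm regions. With runs joined by the distance between region centres instead, an alternative added after seeing the data, the difference was 32 bp, against 33 bp here. The summed width of the peaks behind a region was also larger in each library, 340 against 306 bp in replicate 1 and 417 against 376 bp in replicate 2. On X the widths were nearly alike, at 427 and 425 bp, and on 3R they differed most, at 511 and 429 bp.

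**Figure D5:**
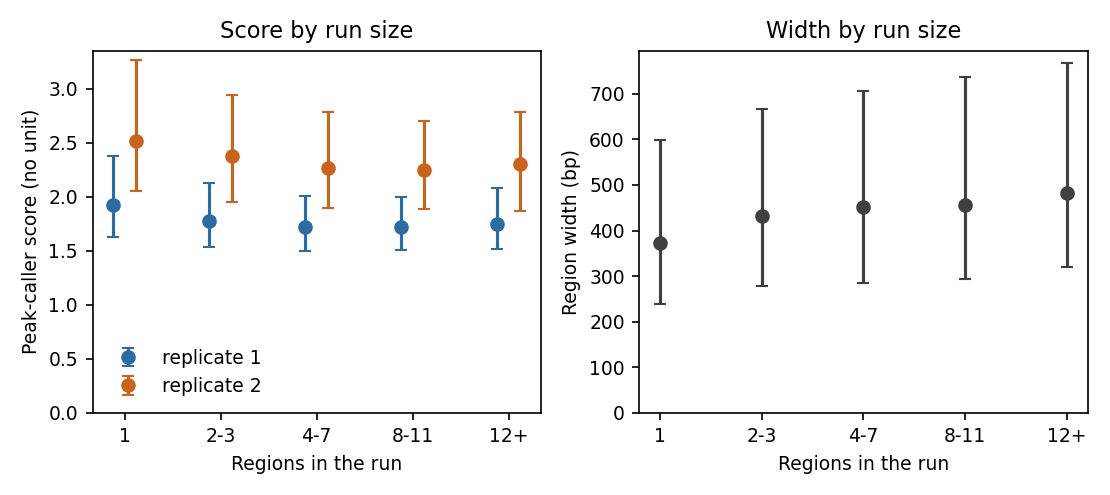
Left, peak-caller score in replicates 1 and 2 (vertical axis) by the number of regions in the chain (horizontal axis). Right, region width in bp by the same classes. Points are medians and bars the interquartile range of the regions, and the highest scores and the smallest widths are at lone regions, with 1.92 and 2.52 in replicates 1 and 2 and 374 bp.

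Of the members, 1072 (87.4%) were under 1000 bp wide, against 89.2% of all main-arm regions. Their widths ranged from 46 to 998 bp with a median of 422 bp (interquartile range 287 to 635 bp), and 18 were under 100 bp. A run held 3 to 20 of them, with a median of 8, and 84 of the 121 runs held at least 8. By width class, 125 members were under 200 bp, 369 were from 200 to under 400 bp, 282 from 400 to under 600 bp, 179 from 600 to under 800 bp and 117 from 800 to under 1000 bp. Compared with regions outside dense runs, the classes below 400 bp held a smaller share of the members, 10.2% and 30.1% against 12.8% and 33.1%. The class from 800 bp held 9.54% of the members and 7.26% of the others.

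Each region of the combined list is the union of overlapping peaks of the 2 libraries. A narrow member therefore holds at least 1 peak from each library by construction. Of the 1072, 1030 (96.1%) consisted of 1 peak from each replicate, against 96.8% of narrow regions outside dense runs. In 714 of the 1030 (69.3%) the peak of replicate 2 was the wider, against 70.8% of such narrow regions outside dense runs. The centres of the replicate peaks were 40.8 bp apart in the median, and 36.0 bp in narrow regions elsewhere. Peaks of the 2 libraries overlapped by at least 50% of each in 750 narrow members (70.0%), against 69.6% of narrow regions elsewhere. By these measures a narrow region in a dense run was about as closely matched between libraries as one outside.

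The scores of narrow members spanned a wide range and depended little on width. They ran from 1.14 to 6.87 in replicate 1 with a median of 1.72, and from 1.26 to 10.99 in replicate 2 with a median of 2.27. By width class, the medians lay between 1.68 and 1.74 in replicate 1 and between 2.14 and 2.32 in replicate 2. Outside dense runs, the narrowest 2 classes had higher medians, 1.81 and 1.81 in replicate 1 and 2.47 and 2.41 in replicate 2. The lower score of members was thus most visible below 400 bp, where members had 1.74 and 1.68 in replicate 1 and 2.14 and 2.25 in replicate 2.

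The 155 members of 1000 bp or more had medians of 1.79 in replicate 1 and 2.32 in replicate 2, above the narrow members in both libraries. Outside dense runs, wide regions had 1.73 and 2.27 and were below narrow ones. Wide members were absent from 37 of the 121 runs. The widest was ORC2970 (3L 9374648 to 9378035, 3388 bp), the last region of its run, which joined 3 peaks of replicate 1 to 1 of replicate 2 and scored 2.12 and 3.28. ORC2849 (3L 7352177 to 7355482, 3306 bp) scored 1.76 and 1.36, and ORC3332 (3L 15646576 to 15649620, 3045 bp) scored 2.51 and 4.44. ORC2349 (2R 19865520 to 19868355, 2836 bp) scored 1.76 and 1.91, and ORC5451 (X 1505246 to 1507834, 2589 bp) scored 2.17 and 2.69. Of these 5, ORC2849 was the one that scored lower in replicate 2.

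Replicate 2 scored higher than replicate 1 at 1104 of the 1227 members (90.0%), against 90.9% of all main-arm regions, so the members showed the offset of the whole list. The median ratio of replicate 2 to replicate 1 was 1.29 in members and 1.31 elsewhere. In 44 runs every member was higher in replicate 2, and in 7 runs under 75% were, with a lowest share of 62.5%. Across members, the scores of the libraries had a Spearman's rho of 0.68, the same to 2 decimals as across the other main-arm regions. Members share their library and position, so no p is given.

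The 10 highest-scoring members were under 1000 bp wide, as were 87.4% of all members. ORC4168 (3R 5902461 to 5902705, 245 bp) scored 6.87 in replicate 1 and 10.5 in replicate 2 and was the first region of its run. ORC6116 (X 13213264 to 13213526, 263 bp) scored 4.52 and 10.99, and its neighbours lay 4008 and 1612 bp away. ORC3463, in the run of 21 regions on 3L, was also among the highest. Among the 10 highest, 4 were the first or last region of a run, and such ends made up 19.7% of all members.

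The other 7 lay on 2L, 2R, 3L and X. ORC935 (2L 16543284 to 16543557, 274 bp), the last of its run, scored 4.76 in replicate 1 and 6.996 in replicate 2. ORC5406 (X 552122 to 552456, 335 bp), also the last, scored 3.64 and 7.37, and ORC2959 (3L 9326914 to 9327118, 205 bp), a first region, scored 3.02 and 7.94. The last of these began the run that ended with the widest member, ORC2970.

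ORC3515 (3L 18012723 to 18013125, 403 bp) scored 4.58 and 6.23 and belonged to the last of the 5 neighbouring runs on 3L. ORC1943 (2R 12986001 to 12986279, 279 bp) scored 4.50 and 5.92, and ORC5678 (X 5322305 to 5322998, 694 bp) scored 3.96 and 6.21. ORC777 (2L 12520255 to 12520699, 445 bp) scored 3.95 and 5.99. All 10 scored higher in replicate 2, as did 90.0% of all members. Of all members, 22 (1.79%) had a combined score of 4 or more, as did 213 of the other main-arm regions (4.04%), a limit chosen after the values were seen.

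Regions at the ends of runs had a somewhat higher median score than those inside. The 242 end regions had a median of 1.77 in replicate 1 and 2.33 in replicate 2, and the 985 inner regions had 1.71 and 2.25. The interquartile ranges of the inner regions were 1.497 to 2.01 and 1.87 to 2.71. End and inner regions had about the same width, 464 and 463 bp in the median. The highest score of a run was at one of its ends in 31 runs in replicate 1 and in 38 in replicate 2. Ends made up 19.7% of members. That share is pooled over members and is not the level for a count of runs, because ends are a larger part of short runs. No level for the count of runs was computed. The same region was the highest in both libraries in 54 of the 121 runs.

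Scores of neighbours within a run were weakly alike. Over 1106 neighbouring pairs, Spearman's rho was 0.22 in replicate 1 and 0.14 in replicate 2, and for widths it was -0.004. Pairs share their run and library, and most regions enter 2 pairs, so these values are a description. How close the nearest neighbour was made little difference to the score. Members with a neighbour under 500 bp away, 365 in number, had medians of 1.69 in replicate 1 and 2.29 in replicate 2. For a nearest gap from 1000 to under 2500 bp the medians were 1.72 and 2.22 (295 members), and from 5000 to under 10000 bp they were 1.75 and 2.23 (125 members).

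The rule joins regions found in both libraries, and peaks called in one library alone were counted separately. Inside the runs replicate 1 had 1460 peaks, of which 145 (9.93%) had no partner in replicate 2. Replicate 2 had 1633 peaks there, of which 385 (23.6%) had no partner in replicate 1. Elsewhere on the main arms the unpartnered shares were 14.3% and 37.6%. Unpartnered peaks lay at 33.6 per Mb inside the runs and 8.11 per Mb elsewhere in replicate 1, and at 89.2 and 27.8 per Mb in replicate 2. Peaks of a single library were thus denser inside the runs by a factor of 4.15 in replicate 1 and 3.21 in replicate 2, and shared peaks by 6.29 and 6.25. The runs were drawn where shared peaks are dense, so the factor for shared peaks restates the rule. The runs also leave out every gap of 10 kb or more between regions, and the rest of the arms includes all of them. The factor for peaks of a single library is therefore not independent of the rule either.

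These unpartnered peaks were narrow and low. Inside runs the median unpartnered peak of replicate 1 measured 62 bp and that of replicate 2 measured 67 bp, against 321 and 410 bp for the shared peaks beside them. Their median scores were 1.51 and 2.08, against 1.72 and 2.26. Of them, 46 in replicate 1 (31.7%) and 130 in replicate 2 (33.8%) were narrower than 36 bp. Elsewhere on the main arms these shares were 33.8% and 27.4%, so the libraries went in opposite directions. Unpartnered peaks elsewhere had similar median scores, 1.55 and 2.15. Their median width was 65.5 bp in replicate 1, close to that inside the runs, and 86 bp in replicate 2, wider than inside the runs.

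When runs were built from a single peak list by the same rule, each library gave more of them. Replicate 1 alone gave 223 dense runs over 7.06 Mb with 30.4% of its main-arm peaks, and replicate 2 alone gave 370 over 12.4 Mb with 43.9%. The runs of replicate 1 overlapped 116 of the 121 combined runs and those of replicate 2 overlapped all 121. In the other direction, 52.0% of the replicate 1 runs and 32.4% of the replicate 2 runs overlapped a combined run. The combined list is made from these same peaks, so the overlap is not independent of it. The largest run of a single list held 45 peaks in replicate 1 and 46 in replicate 2.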

How the data were processed

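Peak lists of 2 ORC2 ChIP-seq libraries and 1 combined list were used. Peaks had been called with PeakSeq, per the file headers and source column, in FlyBase release 5.1. The control, the aligner and the settings of the caller were not stated in these sources. The deposited score of each peak has no stated unit, was used as deposited, and serves to describe and rank regions. Without read counts the depth is unknown.

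Regions were sorted by start on the 6 main arms and joined when the gap (next start minus previous end minus 1) was under 10000 bp. A region's replicate score was the mean over its peaks in that library (overlap of at least 1 bp). Arm length ran to the last peak of any list. Calculations used Python 3.11.15, numpy 2.4.6 and scipy 1.17.1, and the joining was checked on simulated positions. Intervals on run numbers are exact Poisson (95%), and the limit for a count of 0 is 3 runs. With 1 group of 2 libraries and members chosen from the same positions, no p-value was computed.

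The members, lists and comparisons were chosen with earlier results of these data known. Named by rule were the 10 runs with the most regions (the longer span first in ties), the 3 longest and the 3 with the smallest mean gap. All members of the largest run, the 10 highest-scoring members and the 5 widest were also named by rule. The neighbouring runs on 3L were chosen as the most runs within 1 Mb, the shorter of 2 overlapping stretches with 5 runs each. The gene table at hand describes release 6 and positions were not converted, so no gene list was used and no gene or sequence is given. Alternatives covered the joining gap, the minimum number of regions, score and width limits, the overlap rule and each library alone.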

Additional observations from a re-analysis of the deposited data

Results flagged for a closer look

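Dense runs also appeared outside the main arms, on heterochromatic scaffolds and, in replicate 1 alone, on U, in data that the comparisons do not use. Replicate 1 gave 6 runs of at least 8 peaks there and replicate 2 gave 7, whereas the largest chain of the combined list on these scaffolds held 5 regions. The single lists hold more peaks than the combined list and also gave more runs on the main arms, 223 and 370 against 121. The 6 runs of replicate 1 held 56 peaks, of which 20 had a partner in the other library, and the 7 runs of replicate 2 held 82, of which 31 had one. Of the 6 runs of replicate 1, 4 overlapped a run of replicate 2. The runs of replicate 1 on U held 11 and 10 peaks, of which 4 and 0 had a partner in the other library.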

How the results depend on the processing

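The number and extent of dense runs followed the definition, as each alternative changes what is joined. Against 121 runs, a gap under 5 kb gave 21 and under 20 kb gave 272, a minimum of 6 regions gave 278 and of 12 gave 28. Regions at or above the median score gave 9, regions under 1000 bp gave 76, pairs with 50% reciprocal overlap gave 27, and the union of both lists gave 431. Single libraries gave 223 to 370. The share of regions in runs, 18.9% in the report, was 2.89%, 51.6%, 34.4% and 6.07% in the first 4 of these settings. It was 2.52% for high scores, 6.05% for reciprocal overlap, 49.6% for the union and 30.4 to 43.9% for single libraries.

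The score difference between members and other regions (-0.0678 in the combined list) stayed negative in all 6 alternative definitions run. It was -0.0318 for a gap under 5 kb, -0.0964 for 20 kb and -0.0329 for 12 or more regions. On the same members the scores of a single library, the values in the report, gave -0.0841 to -0.0518. The width difference (33 bp) stayed positive in all 6 alternative definitions (joining by centres, chosen after seeing the data, gave 32 bp), at 61.5 bp for 5 kb, 48 bp for 12 or more and 100 bp for high scores. Summed peak widths of a single library on the same members gave 34 to 41 bp. The median gap (2523 bp) became 1495 bp for 5 kb, 3748 bp for 20 kb, 2116 bp for 12 or more and 2867 bp for high scores. End regions exceeded inner regions by 0.0843 in combined score, by 0.0555 for 6 or more regions, by 0.105 for members under 1000 bp, and by 0.0584 to 0.0864 with the scores of a single library on the same members. Members under 800 bp made up 77.8% and those under 500 bp 54.2%. The density of single-library peaks inside runs relative to elsewhere was 3.42, and 3.21 to 4.15 by library. The cause of these shifts was not tested beyond the construction of each setting. No paired analysis was possible because the series has 1 group with peak lists. Depth is unknown, so its effect on the number of runs was not assessed.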
